A study of Mus musculus with 21 samples.

Results

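The members described here are the V and J segments of the T cell receptor alpha chain (TRA) in spleen T cells of mice with and without the DNA demethylating enzymes Tet2 and Tet3. They were read from all 21 deposited TRA clonotype tables. A clonotype is a receptor sequence with its own read count, and those whose coding frame is open through the CDR3 (no frameshift and no stop codon) were called productive: 23009 of 26858 TRA clonotypes. The V and J name of each is the best hit listed for it, without the allele. In all, 115 V and 45 J segments were used.

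The TRA chain is assembled in each developing T cell by joining 1 V segment to 1 J segment, with bases trimmed and added at the junction, which lies in the CDR3, the loop that touches the peptide. The V segments lie upstream of the J cluster, and J numbers fall from its 5′ end, next to the V array, to its 3′ end, next to the constant gene Trac. Joining usually begins with proximal V and 5′ J segments and can then move outward on the same chromosome, so that V and J choice are linked by position. Part of the V array is repeated, and the copies carry the suffix D or N.

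The cells came from 4 groups. Wild-type mice (WT, n = 5, all male) and Tet2-/-Tet3flx/flxCD4cre mice (DKO, n = 5, replicate 2 female, replicates 4 and 5 described as young) gave live cells sorted as CD4+CD25- TCRb+ and negative for the aGalCerCd1d tetramer, which removes invariant NKT cells. In DKO mice Tet2 is lost in every cell and Tet3 only where the CD4cre transgene has acted, so the cells grew up in a Tet2-deficient animal. DKO cells of the same genotype were also recovered as CD45.2+CD45.1- cells after a first transfer into recipients (TX1, n = 4, replicate 3 female) or after a second transfer of cells that had expanded in an earlier recipient (TX2, n = 7, replicates 5 to 7 female). The labels do not say which donor supplied which recipient.

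WT libraries held 3022 to 3557 productive clonotypes and 4424 to 6609 productive TRA reads. DKO replicate 2 held 194 productive clonotypes and the other DKO libraries 1407 to 1917, with 4154 to 5982 reads in the group. Transfer libraries held 1 to 9 productive clonotypes among 2208 to 6431 reads. Cd3e and Trac were read in all 21 libraries. Cd4 lay at 1070 to 1813 CPM (reads scaled to the library total) in WT and DKO, at 1003 CPM in TX1 replicate 1, at 27.2 CPM in TX1 replicate 3 and between 0.135 and 2.26 CPM in the other transfer libraries. Cd8b1, a CD8 chain, lay at 29.8 to 38.8 CPM in WT and at 0.221 to 4.41 CPM in DKO. The other CD8 chain, Cd8a, lay at 0.229 to 0.438 CPM in WT and at 0 to 2.57 CPM in DKO. Zbtb16 lay at 0.305 to 0.913 CPM in WT, 1.76 to 13.1 CPM in DKO and 61.5 to 415 CPM in the transfer libraries. The part of cells with these genes in the WT and DKO comparisons was not tested.

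WT replicates 2 and 5 stood apart from the other WT pairs in what they shared. They had 14 CDR3 nucleotide sequences with at least 5 reads in both, of 28 and 121 such clonotypes, whereas the other WT pairs shared 0 to 4. Of their 100 most abundant clonotypes, 43 of replicate 2 were found in replicate 5 and 41 of replicate 5 in replicate 2, against 9 to 26 for the other WT pairs. The most abundant clonotype was the same in both, TRAV14-2 with TRAJ30, with 77 and 127 reads. Calls and counts of calls that change when this pair is taken as 1 sample are stated for both settings. Several transfer libraries also carry the same clone, as shown next, so no test was made across them.

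The most abundant productive clonotype made up 75.4 to 95.7% of TRA reads in each of the 11 transfer libraries, and these 11 libraries held 5 different dominant clonotypes. The CDR3 nucleotide sequences are shown because they tell which libraries carry the same clone and how each junction was built. They are written 5′ to 3′ from the deposited tables. Capitals mark bases lying between the end of the V match and the start of the J match, that is, bases matched to neither segment. The second clonotype of TX1 replicate 1 and the dominant clonotype of DKO replicate 2 are added for comparison.
TRAV4-4-DV10 with TRAJ50, TX1 replicate 1: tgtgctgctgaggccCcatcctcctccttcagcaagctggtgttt
TRAV9N-3 with TRAJ35, TX1 replicate 1, second clonotype: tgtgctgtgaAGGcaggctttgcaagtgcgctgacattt
TRAV4-2 with TRAJ9, TX1 replicate 2: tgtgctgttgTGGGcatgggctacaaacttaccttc
TRAV8N-2 with TRAJ18, TX1 replicate 3 and TX2 replicates 5 to 7: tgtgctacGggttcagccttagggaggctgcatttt
TRAV9N-3 with TRAJ21, TX1 replicate 4: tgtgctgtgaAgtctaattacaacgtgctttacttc
TRAV9N-3 with TRAJ23, TX2 replicates 1 to 4: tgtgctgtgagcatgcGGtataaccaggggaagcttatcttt
TRAV13-1 with TRAJ57, DKO replicate 2: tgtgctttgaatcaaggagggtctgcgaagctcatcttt

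In the first transfer the dominant clonotype differed in all 4 libraries. TX1 replicate 1 was led by TRAV4-4-DV10 with TRAJ50, at 83.2% of TRA reads (exact 95% binomial interval 82.1 to 84.3%), and its second clonotype, TRAV9N-3 with TRAJ35, held 5.51%. TX1 replicate 2 was led by TRAV4-2 with TRAJ9 at 75.4% (73.9 to 76.8%). TX1 replicate 3 was led by TRAV8N-2 with TRAJ18 at 84.1% (82.7 to 85.5%). TX1 replicate 4 was led by TRAV9N-3 with TRAJ21 at 88.1% (87.3 to 89.0%). These intervals cover counting error only, and a larger share of reads cannot be told apart from more receptor RNA per cell.

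The second transfer held 2 dominant clonotypes. TX2 replicates 1 to 4 shared 1 CDR3 sequence, TRAV9N-3 with TRAJ23, at 95.3, 95.1, 95.7 and 95.7% of TRA reads. TX2 replicates 5 to 7 shared TRAV8N-2 with TRAJ18, the sequence that also dominated TX1 replicate 3, at 85.6, 83.2 and 88.1%. All 4 female transfer libraries thus carried the TRAV8N-2 clone and none of the 7 male ones did, so sex and clone cannot be told apart here. Other productive clonotypes of the transfer libraries were few: 257 reads of the second clonotype in TX1 replicate 1, and at most 9 reads for any other clonotype in TX1 replicates 2 to 4 and TX2.

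**Figure D1:**
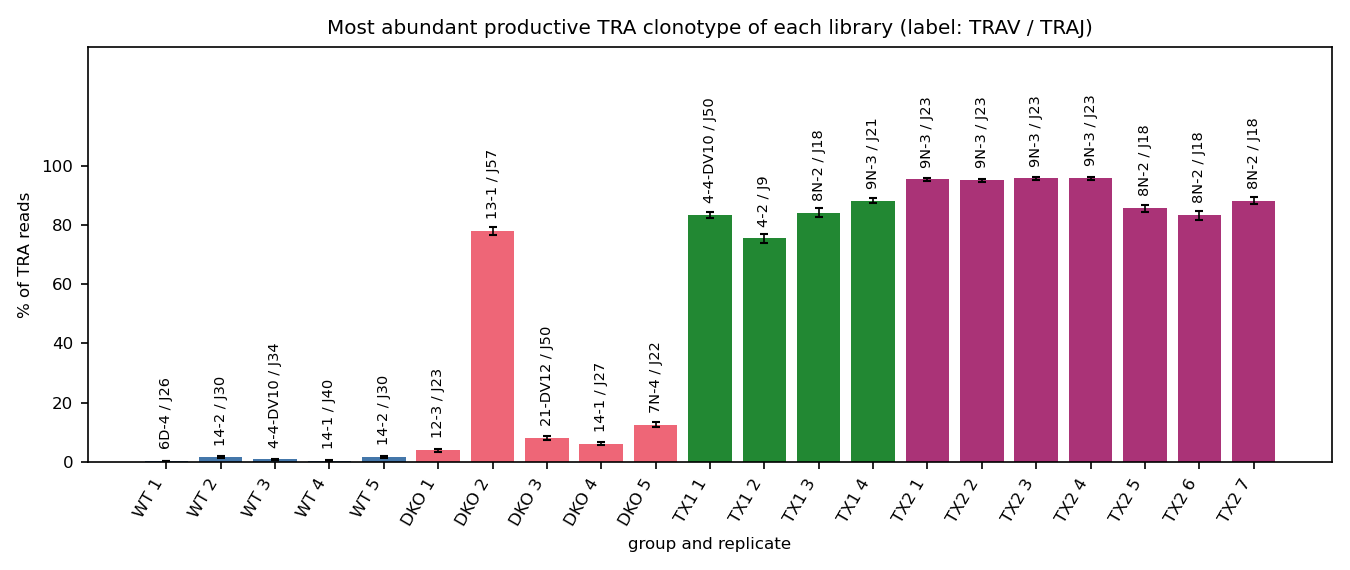
Share of TRA reads (%) held by the most abundant productive clonotype in each library, with its exact 95% binomial interval; colours mark the 4 groups and the label above each bar gives TRAV and TRAJ. WT bars lie between 0.218 and 1.66%, 4 DKO bars between 3.86 and 12.5%, and DKO replicate 2 at 77.9%, within the range of the transfer libraries (75.4 to 95.7%).

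TRAV9N-3 led both TX1 replicate 4 and TX2 replicates 1 to 4, with different J segments and different CDR3 sequences, and was also the V of the second clonotype in TX1 replicate 1. In WT it was a rare segment, at 0.300 ± 0.115% of clonotypes (SD, n = 5, range 0.157 to 0.463%). TRAV8N-2 was also rare in WT, at 0.475 ± 0.156% (range 0.232 to 0.656%), as was TRAV4-2 at 0.617 ± 0.0894%. TRAV4-4-DV10 was a common one, at 2.69 ± 0.424%. The transfer clones thus carried V segments both rare and common in WT.

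By position on chromosome 14 (GRCm38, plus strand, GENCODE M21), the V segments of the 5 transfer clones were TRAV9N-3 at chr14:53231433-53232102, TRAV8N-2 at chr14:53345890-53346424, TRAV4-2 at chr14:53418349-53418873 and TRAV4-4-DV10 at chr14:53683647-53684177. Their distances to Trac ran from 536 to 988 kb, in an array that reaches 1792 kb from Trac. V segments 500 to 1000 kb from Trac also held most clonotypes before transfer, 63.1 ± 0.603% in WT and 63.8 ± 2.59% in DKO (SD, n = 5 each). Their J segments ran across the cluster, from TRAJ50 at chr14:54167590-54167652, near its 5′ end, to TRAJ9 at chr14:54209393-54209450, near its 3′ end. CDR3 length was 36 nucleotides in the TRAJ9, TRAJ18 and TRAJ21 clones, 42 in the TRAJ23 clone and 45 in the TRAJ50 clone. The junctions held 1 unmatched base in the TRAJ18, TRAJ21 and TRAJ50 clones, 2 in the TRAJ23 clone and 4 in the TRAJ9 clone.

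TRAJ18 is the J segment of the invariant NKT receptor, but there it is joined to TRAV11, and the TRAJ18 clone of the transfers used TRAV8N-2. The invariant NKT pair, TRAV11 or a copy of it with TRAJ18, was absent from all transfer libraries, from 4 of 5 WT libraries and from 4 of 5 DKO libraries. WT replicate 3 held 1 such clonotype with 1 read, and DKO replicate 2 held 2 with 3 reads in all. In the WT and DKO libraries without the pair, 0 reads allow a share of up to 0.0391 to 0.0636% of all TRA reads (3 reads of the library's total). The MAIT pair, TRAV1 with TRAJ33, was found in WT replicate 1 alone, as 1 clonotype with 4 reads.

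The CDR3 sequences of the transfer clones were rare elsewhere. The TRAV8N-2 and TRAJ18 sequence had 1 read each in WT replicate 5, DKO replicate 4 and DKO replicate 5. The TRAV9N-3 and TRAJ23 sequence had 2 reads in WT replicate 4, 1 in DKO replicate 5 and 6 in TX1 replicate 4, where it made up 0.106% of TRA reads. DKO replicate 4 had its own TRAV9N-3 and TRAJ23 clonotype with 88 reads and another CDR3. Whether the single reads in WT and DKO came from separate T cells or from reads carried between libraries was not tested; leaving out every clonotype with the CDR3 of another library's dominant clone changed no count of segments called below.

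In the DKO mice before transfer, the dominant clonotype differed in every library. DKO replicate 1 was led by TRAV12-3 with TRAJ23 at 3.86% of TRA reads. DKO replicate 3 was led by TRAV21-DV12 with TRAJ50 at 8.03%. DKO replicate 4 was led by TRAV14-1 with TRAJ27 at 6.15%. These compare with 0.218 to 1.66% for the dominant clonotypes of WT libraries.

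DKO replicate 5 was led by TRAV7N-4 with TRAJ22 at 12.5%. DKO replicate 2 stood far above the others, with TRAV13-1 and TRAJ57 at 77.9% (76.7 to 79.1%). Its junction held no unmatched base, and 2 bases matched both segments. The same sequence was found with 1 read in DKO replicate 1. None of the 5 DKO dominant sequences was found in a transfer library.

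Whether the loss of Tet2 and Tet3 changes which TRA segments are used was asked first by clonotypes, each counted once whatever its reads. The order of V use was much the same in WT and DKO. TRAV7-2 was the most used segment in both, at 5.52 ± 0.430% of WT and 5.39 ± 1.08% of DKO clonotypes (SD, n = 5 each), followed in WT by TRAV7-4 (4.02 ± 0.303 and 4.22 ± 0.518%) and TRAV6-6 (3.76 ± 0.525 and 3.32 ± 0.648%). The 10 most used V segments of WT held 34.2% of WT and 32.9% of DKO clonotypes. The names TRAV7-2 and TRAV6-6 rest on the clonotype tables, since the counts per gene, given below, held few or no reads for them.

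No V segment passed the test by clonotypes: 0 of 62 tested in edgeR (quasi-likelihood test, Benjamini-Hochberg adjusted p below 0.05; 0.0% called), with 8 at an unadjusted p below 0.05 and 0 of 115 in DESeq2. Of the 62, 60 had a fitted change within 1.5-fold, and the median log2 fold change was 0.03. Across copies, the fitted change was above 0 for 19 of 36 V segments without a suffix, 10 of 17 D copies and 6 of 8 N copies, with medians of 0.01, 0.02 and 0.13. The shares of clonotypes were 66.7 ± 0.728% (WT) and 65.9 ± 0.996% (DKO) without a suffix, 24.5 ± 0.617 and 24.2 ± 1.24% for D copies, and 7.98 ± 0.682 and 9.26 ± 1.04% for N copies. Between 45.6 and 53.9% of clonotypes in these libraries had more than 1 V segment tied for the best hit, so the copy named is uncertain.

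The V segments with the smallest p were not called. TRAV7N-6 made up 0.687, 1.06, 0.574, 0.753 and 1.21% of clonotypes in WT and 1.30, 1.55, 1.11, 1.42 and 1.41% in DKO. The groups overlapped, since WT replicate 5 lay above DKO replicate 3. The log2 fold change was 0.60 ± 0.21 (SE) and the edgeR adjusted p (Benjamini-Hochberg) 0.309. It passed the test without WT replicate 5 (adjusted p = 0.0181). With D and N copies merged into 1 segment, TRAV7-6 was the segment called of 40 tested (log2 fold change 0.49 ± 0.14, adjusted p = 0.0289). By reads the DKO means were not higher. TRAV7N-6 made up 0.837 ± 0.293% of WT and 0.746 ± 0.416% of DKO reads, and TRAV7-6 0.801 ± 0.0747 and 0.565 ± 0.215%. In the counts per gene, given below, Trav7-6 was called lower in DKO.

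TRAV14D-2 made up 0.430 to 0.656% of WT and 0.0583 to 0.516% of DKO clonotypes (log2 fold change -0.79 ± 0.34). TRAV4D-4 made up 0.703 to 1.89% and 1.35 to 3.09% (0.40 ± 0.17), and TRAV21-DV12 0.656 to 1.24% and 0.939 to 1.78% (0.45 ± 0.20). The edgeR adjusted p (Benjamini-Hochberg) was 0.343 for each. All 3 ranges overlapped between groups. The log2 fold change was -0.45 for TRAV14D-2 without DKO replicate 3 and 0.22 for TRAV4D-4 without WT replicate 5.

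The delta segments that share this locus were rare. TRDV segments, used by gamma delta T cells, made up 0.755 ± 0.194% of WT and 0.587 ± 0.195% of DKO clonotypes, and TRDJ segments 0.307 ± 0.106 and 0.119 ± 0.136% (SD, n = 5 each).

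J use by clonotypes was also close between groups. TRAJ31 was the most used J in WT, at 7.99 ± 0.494% of WT and 7.65 ± 0.940% of DKO clonotypes, followed by TRAJ23 (6.59 ± 0.484 and 7.18 ± 1.23%) and TRAJ37 (6.05 ± 0.289 and 4.57 ± 2.08%). The lowest DKO value at TRAJ37 was that of replicate 2, at 1.03% of its 194 clonotypes, and the others lay between 5.01 and 6.55%. J segments 40 to 61, the 5′ group, took 24.8 ± 0.787% of WT and 25.4 ± 0.924% of DKO clonotypes. Segments 20 to 39 took 51.4 ± 0.962 and 50.7 ± 1.54%, and segments 2 to 19, the 3′ group, 23.5 ± 0.580 and 23.8 ± 2.01%.

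Of 43 J segments tested by clonotypes, 2 passed (4.65% called) in the same edgeR test with Benjamini-Hochberg adjustment, 1 lower and 1 higher in DKO. Both are 5′ segments. DESeq2 called 0 of 45, with 4 at an unadjusted p below 0.05. The fitted change was within 1.5-fold for 41 of 43, and its median was 0.02. Of the 14 tested in the 5′ group, 9 lay above 0 (median 0.12), as did 8 of 16 in the middle group (median 0.00) and 7 of 13 in the 3′ group (median 0.01).

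TRAJ43 was lower in DKO. It made up 3.97, 4.07, 4.72, 3.73 and 4.75% of clonotypes in WT replicates 1 to 5 and 3.39, 2.58, 2.74, 3.77 and 3.18% in the DKO replicates. All but 1 DKO library lay below every WT library, DKO replicate 4 lying just above the lowest WT library. The log2 fold change was -0.40 ± 0.12 (SE, edgeR adjusted p = 0.0280, Benjamini-Hochberg).

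TRAJ57 was higher in DKO. It made up 1.56, 1.69, 1.79, 1.69 and 0.815% of clonotypes in WT and 2.71, 3.61, 1.87, 1.85 and 1.84% in DKO. The groups did not overlap, although 3 DKO libraries lay close to the WT range and WT replicate 5 lay far below the other WT libraries. The log2 fold change was 0.52 ± 0.17 (SE, edgeR adjusted p = 0.0387, Benjamini-Hochberg). TRAJ57 is also the J of the expanded clone of DKO replicate 2, which counts as 1 of its 194 clonotypes.

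These calls rest on the setting. With WT replicates 2 and 5 as 1 sample, TRAJ43 was called and TRAJ57 was not. Neither was called without WT replicate 5, DKO replicate 1 or DKO replicate 3. TRAJ57 was also lost without WT replicate 1, WT replicate 2 or DKO replicate 2, and TRAJ43 without WT replicate 3 or DKO replicate 5. With each of the 10 libraries left out in turn, the log2 fold change ran from -0.46 to -0.33 for TRAJ43 and from 0.35 to 0.59 for TRAJ57. TRAJ58 (0.989 ± 0.181% of WT and 1.21 ± 0.693% of DKO clonotypes, log2 fold change 0.59 ± 0.21, adjusted p = 0.0662) and TRAJ2, near the 3′ end of the cluster (0.318 ± 0.0768 and 0.643 ± 0.307%, 0.83 ± 0.34, adjusted p = 0.137), did not pass in edgeR with all libraries. TRAJ58 passed without DKO replicate 2 (adjusted p = 0.0294) and over clonotypes without a tied V hit (0.0375), and TRAJ2 passed without DKO replicate 5 (log2 fold change 1.07, adjusted p = 0.0339).

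**Figure D2:**
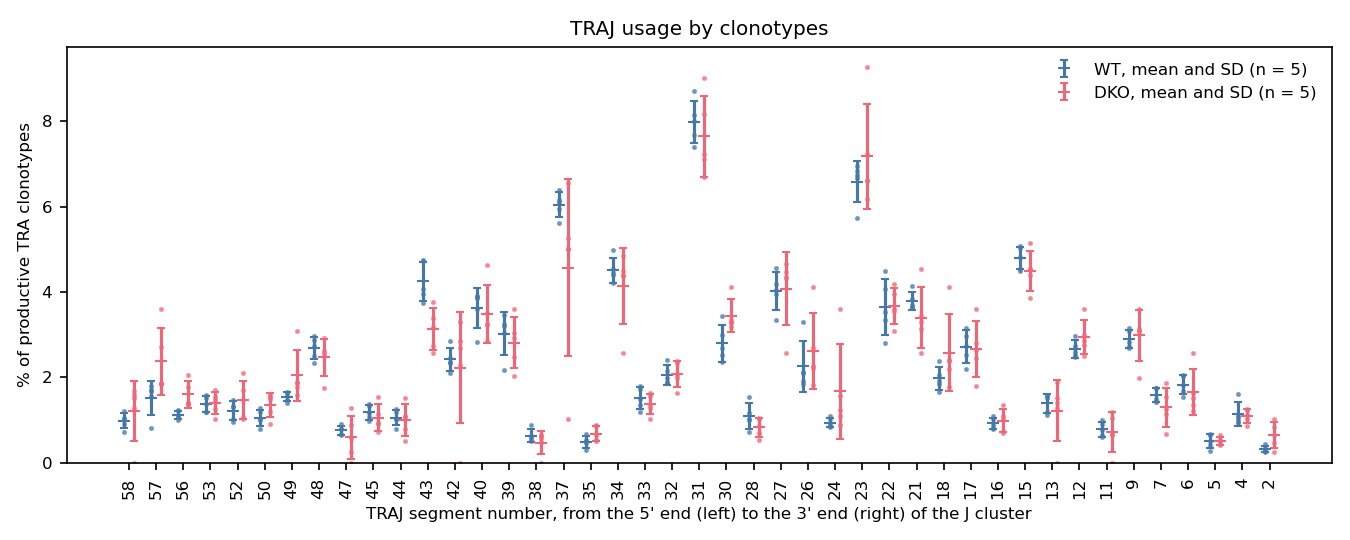
Share of productive TRA clonotypes (%) using each TRAJ segment, ordered from the 5′ to the 3′ end of the J cluster, with 1 point per library and the mean and SD of WT (blue, n = 5) and DKO (red, n = 5). TRAJ31, TRAJ37 and TRAJ23 are the tallest in WT, and the means of TRAJ43 (4.25 and 3.13%) and TRAJ57 (1.51 and 2.37%) are the ones whose difference passed the test.

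V and J position were linked in every WT and DKO library. Clonotypes using V segments less than 500 kb from Trac had a mean J number of 44.7 ± 0.795 in WT and 46.7 ± 0.709 in DKO (SD, n = 5 each), that is, near the 5′ end. Those with V segments 500 to 1000 kb away averaged 30.7 ± 0.459 and 30.8 ± 0.895, and those farther away 24.9 ± 0.403 and 24.3 ± 0.598. In the nearest class, 71.5 ± 0.886% of WT and 77.0 ± 2.55% of DKO clonotypes used J segments 40 to 61, against 13.2 ± 0.801 and 13.3 ± 1.65% in the farthest. The nearest class held 5.91 ± 0.417% of WT and 6.26 ± 1.08% of DKO clonotypes. Among clonotypes without a tied V hit it held 11.8 ± 0.963 and 11.8 ± 1.66%, so the class shares depend on how ties are treated. Over all clonotypes, the mean J numbers of the nearest class did not overlap between the groups, 43.7 to 45.8 in WT and 45.9 to 47.8 in DKO. They did overlap over clonotypes without a tied V hit, 44.9 to 46.6 and 46.3 to 47.8. The classes were set after the data were seen and were not tested.

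**Figure D3:**
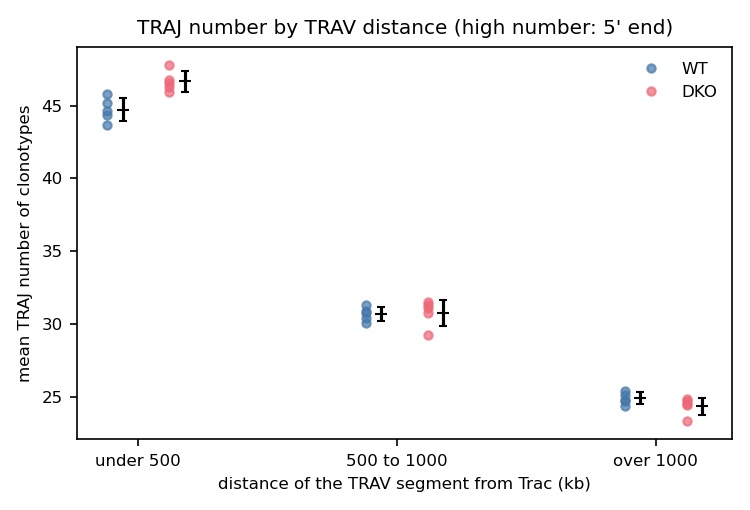
Mean TRAJ number of productive clonotypes against the distance of their TRAV segment from Trac (kb, 3 classes), with 1 point per library and black marks for the mean and SD (n = 5 per group). The mean falls from 44.7 (WT) and 46.7 (DKO) in the nearest class to 24.9 and 24.3 in the farthest.

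As a single value per library, the Spearman correlation across clonotypes between V distance and J number was -0.353, -0.348, -0.412, -0.371 and -0.351 in WT and -0.405, -0.415, -0.381, -0.420 and -0.409 in DKO. The DKO values lay farther from 0 than 4 of the 5 WT values, and WT replicate 3 lay within their range. The means differed by -0.0390 (exact two-sided permutation test over libraries, p = 0.032, n = 5 each, Benjamini-Hochberg adjusted over 12 such tests 0.0952), which did not pass. Over clonotypes without a tied V hit, the difference was -0.0319 and passed (adjusted exact p = 0.0476).

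Mean positions alone were close. The mean J number was 29.7 ± 0.228 in WT and 29.8 ± 0.686 in DKO, and the mean V distance 870 ± 4.85 and 860 ± 9.96 kb (adjusted exact permutation p = 0.857 and 0.229, n = 5 each). The effective number of segments, the number of equally used segments that would give the same entropy, was 47.9 ± 0.330 and 48.6 ± 2.03 for V and 30.3 ± 0.310 and 30.9 ± 0.817 for J when 194 clonotypes were drawn from each library (adjusted exact permutation p = 0.533 and 0.333, n = 5 each). Over clonotypes without a tied V hit, the effective V number was lower in DKO, by 0.989 segments (adjusted exact p = 0.0476), so its direction depends on how ties are treated.

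CDR3 length by clonotypes differed by less than 1 nucleotide. The mean was 40.4, 40.4, 40.4, 40.4 and 40.3 nucleotides in WT and 40.4, 40.6, 40.7, 40.5 and 40.6 in DKO, so that 1 DKO library lay within the WT range and 4 above it. The difference was 0.199 nucleotides and did not pass (exact permutation p = 0.032, adjusted 0.0952, n = 5 each). It passed without DKO replicate 1 (0.244 nucleotides, adjusted exact p = 0.0476). The spread of lengths within a library was 4.06 ± 0.0989 and 4.04 ± 0.192 nucleotides. Bases matched to neither V nor J averaged 2.41 ± 0.0298 per clonotype in WT and 2.33 ± 0.120 in DKO (adjusted exact permutation p = 0.254, n = 5 each).

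Weighted by reads, length varied much more between DKO libraries. The mean was 40.3 ± 0.109 nucleotides in WT (range 40.1 to 40.4) and 40.7 ± 0.872 in DKO (39.3 to 41.4). DKO replicate 2 lay lowest, at 39.3, with 88.7% of its productive reads at 39 nucleotides, the length of its dominant clone. The difference did not pass (adjusted exact permutation p = 0.455, n = 5 each). Without DKO replicate 2 it was 0.775 nucleotides and passed (adjusted exact p = 0.0476).

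**Figure D4:**
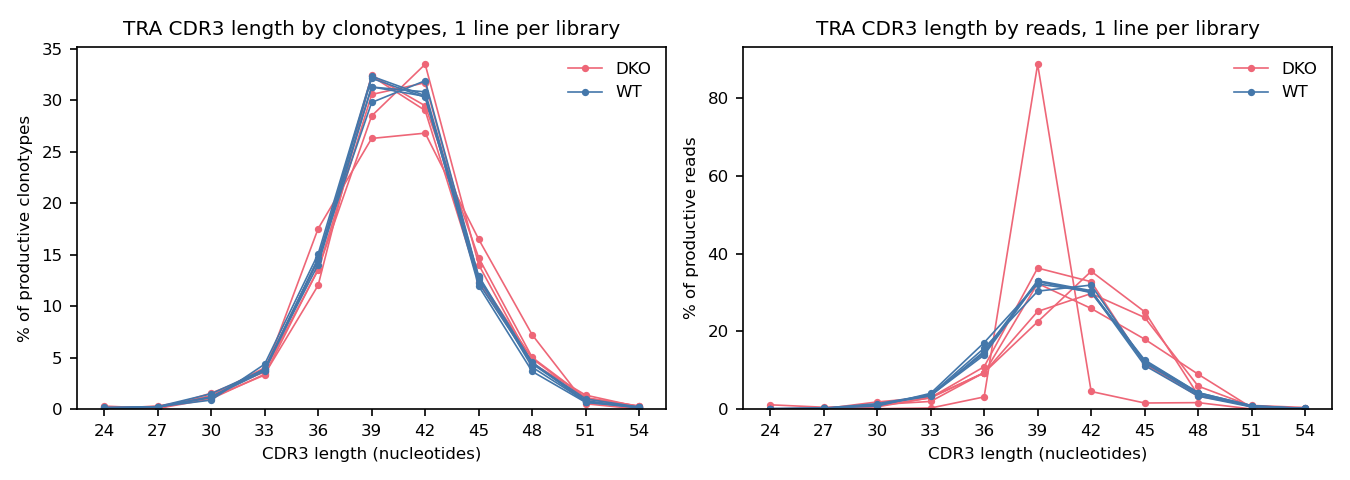
Share of productive TRA clonotypes (left) and reads (right) at each CDR3 length in nucleotides, 1 line per library, WT blue and DKO red (5 each). The lines lie together by clonotypes, while by reads DKO replicate 2 reaches 88.7% at 39 nucleotides.

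Segment use by reads asks which segments the abundant clones carry. In WT it followed use by clonotypes, with TRAV7-2 leading by reads in all 5 libraries at 5.25 to 8.05%. In DKO the leading V by reads was TRAV12D-2 at 5.59% in replicate 1, TRAV13-1 at 86.1% in replicate 2 and TRAV21-DV12 at 10.5% in replicate 3. It was TRAV14-1 at 9.48% in replicate 4 and TRAV7N-4 at 15.6% in replicate 5. All 5 differ from each other. In replicates 2 to 5 each was the V of the dominant clonotype.

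The leading J by reads in DKO was TRAJ23 at 11.3% (replicate 1), TRAJ57 at 86.2% (replicate 2), TRAJ50 at 10.3% (replicate 3), TRAJ27 at 14.3% (replicate 4) and TRAJ22 at 17.1% (replicate 5), in each case the J of the dominant clonotype. By clonotypes these J segments held 6.62, 3.61, 1.58, 4.48 and 3.55% in the same libraries. Clonotypes with 10 or more reads numbered 1 to 14 in WT libraries, holding 0.249 to 5.70% of productive reads, and 9 to 75 in DKO libraries, holding 35.2 to 92.2%.

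**Figure D5:**
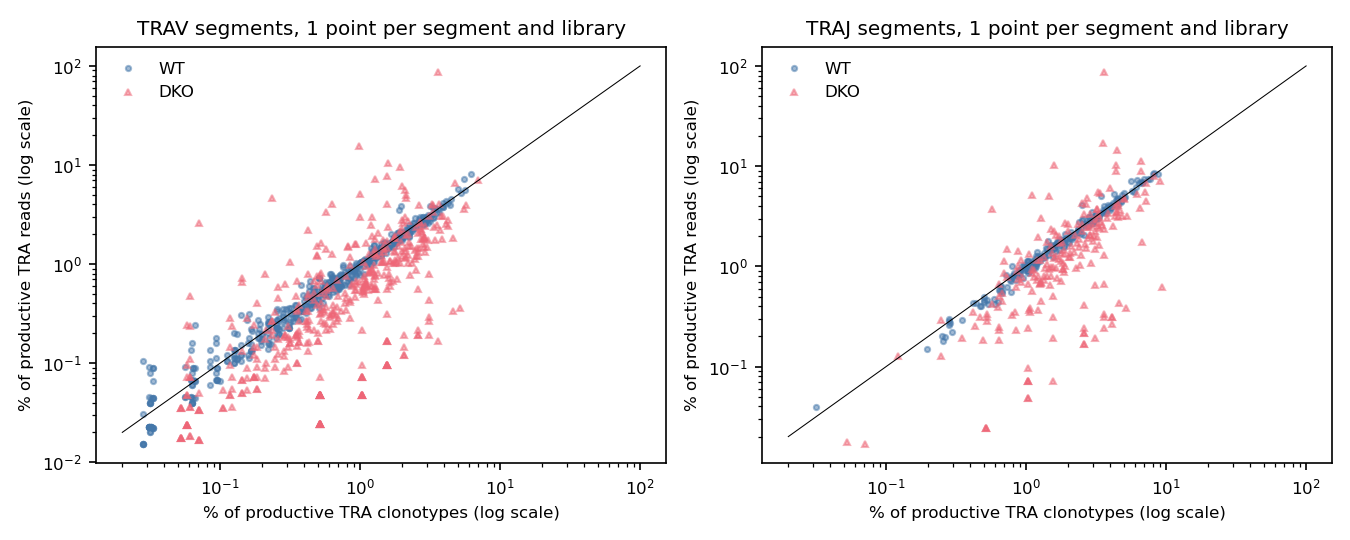
Share of productive TRA reads (%) against share of productive TRA clonotypes (%), both on log scales, for each TRAV (left) and TRAJ (right) segment in each WT (blue circles) and DKO (red triangles) library; the line marks equal shares. WT points follow the line, while DKO points scatter to both sides, up to TRAV13-1 (86.1%) and TRAJ57 (86.2%) in DKO replicate 2.

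No segment passed across the DKO group by reads. In edgeR with Benjamini-Hochberg adjustment, 0 of 74 V segments passed (0.0% called), with 10 at an unadjusted p below 0.05, and 0 of 43 J segments (0.0% called), with 2. DESeq2 called 3 V segments, TRAV12-3, TRAV12D-3 and TRAV6-7-DV9, all higher, and 0 J segments. Without DKO replicate 2, 7 V segments were called, 2 higher and 5 lower. TRAV13-1 (19.6 ± 37.2% of DKO reads against 2.74 ± 0.103% in WT) and TRAJ57 (18.8 ± 37.7 against 1.49 ± 0.362%) show how 1 library sets the DKO mean and its spread.

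The effective number of V segments by reads was 60.4, 58.1, 60.7, 60.2 and 58.6 in WT and 51.01, 2.40, 51.4, 46.5 and 41.4 in DKO. Every DKO library lay below every WT library. The exact permutation p was 0.00794, the smallest that 5 against 5 can give, and 0.0952 after adjustment over the 12 tests, which did not pass. For J the values were 32.98, 32.8, 33.7, 33.4 and 32.3 in WT and 29.4, 2.29, 33.2, 24.4 and 27.1 in DKO, where replicate 3 lay within the WT range (exact p = 0.032, adjusted 0.0952). The mean J number by reads was 29.6 ± 0.396 in WT and 35.1 ± 10.4 in DKO, with DKO replicate 2 at 53.5.

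The counts per gene gave a second reading of the V segments, from reads assigned to Trav genes. In DKO replicates 2 to 5 the gene with most Trav reads was the V of the dominant clonotype, at 83.2% (Trav13-1), 10.3% (Trav21-dv12), 12.5% (Trav14-1) and 21.9% (Trav7n-4) of Trav gene reads. In DKO replicate 1, Trav12-2 led at 7.11% and Trav12-3, the V of its dominant clonotype, was second at 6.67%. In TX1 replicates 1 to 3 the dominant V led at 77.9, 69.7 and 88.4%, and in TX2 replicates 5 to 7 at 89.1, 85.9 and 89.8%.

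The 5 libraries led by TRAV9N-3 went the other way. Trav9n-3 and its copy Trav9d-3 were listed at 0 reads in all 21 libraries, WT included, although the clonotype tables place TRAV9N-3 in all 5 WT libraries. Other V segments that ranked high in the clonotype tables were also at or near 0. In WT and DKO, Trav7-2 held at most 0.0333% of Trav gene reads and Trav6-6 at most 0.0111%. Trav12d-2 was at 0 in DKO replicate 1, where TRAV12D-2 led by clonotype reads. Trav7-4 held 3.43 to 4.32% in WT. The gene files list multimapping reads in a line of their own, and the part of such reads in these low values was not tested. In TX1 replicate 4 the leading gene was Trav7-5 at 93.3% of Trav gene reads, and in TX2 replicates 1 to 4 it was Trav5-4 at 76.4 to 86.8%. These are the V segments of the most abundant nonproductive clonotype in the same libraries, TRAV7-5 with TRAJ31 (11.5% of TRA reads) and TRAV5-4 with TRAJ24 (4.13 to 4.84%). Trav gene reads summed to 20.2 to 24.2 CPM in these 5 libraries, against 97.3 to 231 CPM in the other 6 transfer libraries and 229 to 330 CPM in WT and DKO.

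Between DKO and WT, 16 of 91 tested Trav and Traj genes fell and 0 rose in edgeR with Benjamini-Hochberg adjustment over all genes, a share below the 43.4% called among all 13700 genes tested. The 16 were 14 Trav and 2 Traj genes, and the median log2 fold change of the 91 was -0.65. Trav9d-1 fell by 1.97 ± 0.37 and Trav10 by 1.24 ± 0.23 on the log2 scale (SE, adjusted p = 0.00147 and 0.00150). Trav7-6 had a log2 fold change of -1.08 ± 0.38 (edgeR adjusted p = 0.0397), opposite in direction to the merged TRAV7-6 segment by clonotypes. Trav13-1, the V of the clone of DKO replicate 2, had a log2 fold change of 2.30 ± 0.96 and did not pass (adjusted p = 0.0722). With WT replicates 2 and 5 as 1 sample, 7 were called, all lower. DESeq2 called 20, all lower. Without DKO replicate 1, 2, 3 or 4, 1 gene was called higher in each case. The count called was 6 without WT replicate 5, 7 without WT replicate 2, 3 or 4 or DKO replicate 5, and 9 without WT replicate 1.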

How the data were processed

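The authors deposited clonotype tables with a count of reads per receptor sequence and its fraction of the library's reads, and gene tables with whole-number counts per gene. Per the submitters' processing notes, fastp 0.21.0, STAR 2.7.5a and DESeq2 were used, with builds mm10 and GRCm38. No label or header names the tool that built the clonotypes, and per the file headers the columns are laid out as MiXCR exports them. Read counts without molecular identifiers are not independent molecules.

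Segment names were cut at the allele and matched to GENCODE M21 for positions. Shares of clonotypes and of reads were computed from the count column, not from the deposited fraction. V and J counts per library were tested in edgeR 4.0.16 (R 4.3.3) by the quasi-likelihood test, with library totals as the size, filterByExpr and Benjamini-Hochberg adjustment at 0.05, on WT and DKO libraries only. Gene counts were tested over all genes with TMM. The 12 single values per library were compared by exact two-sided permutation over 252 splits, adjusted together. Spearman correlations and binomial intervals were computed with scipy 1.17.1. The smallest p this allows is 0.00794. The edgeR fits were also run on simulated data, with changes larger than most of those fitted by clonotypes. That run therefore does not show how changes as small as these would be called.

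Segments were named by rule: those called or, where fewer than 4 were called, the 4 with the smallest p in each clonotype table, the dominant clonotypes, the invariant pairs and the 3 most used in WT. The members, lists and tests were chosen with earlier results of these data known. Nothing in the labels pairs WT with DKO mice or says that replicates are more than separate samples, so p-values measure the spread between these samples. Deviations from the group means of same-numbered WT and DKO libraries correlated at 0.107 to 0.272 in V use and -0.309 to 0.212 in J use. Differently numbered libraries were not compared, and these correlations were not tested. The replicate block was run as an alternative. Depth sets the precision: 194 clonotypes in DKO replicate 2, where 3 clonotypes are 1.55%. Alternatives covered the scaling, the filter, the clonotypes kept, equal depth, tied V hits, merged copies, the replicates and the replicate block.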

Additional observations from a re-analysis of the deposited data

Results flagged for a closer look

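In 44 groups of library values checked for a sample far from the others, 7 had one. Chance alone gives about 1 in 20 independent groups, but these groups are not independent. The values by reads all include the same dominant clone of DKO replicate 2, and the segments checked were those with the smallest p. The count of 7 can therefore not be set against that rate. Of the 7, 6 are DKO replicate 2. Its mean J number by clonotypes was 28.61 against 30.1 to 30.2 in the other DKO libraries, and by reads 53.47 against 29.1 to 33.2. Its effective number of V segments by reads was 2.405 against 41.4 to 51.4, and of J segments 2.295 against 24.4 to 33.2. Its dominant clonotype, TRAV13-1 with TRAJ57, held 77.89% of TRA reads against 3.86 to 12.5%. TRAJ58 was at 0.0% of its clonotypes against 1.28 to 1.67%. Since 3 clonotypes of 194 are 1.55%, 0 clonotypes allow a share of up to 1.55%, within that range.

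The remaining value is TRAJ57 in WT replicate 5, at 0.8153% of clonotypes against 1.56 to 1.79% in the other WT libraries. Without this library the log2 fold change of TRAJ57 was 0.35 in place of 0.52 and did not pass (edgeR adjusted p = 0.247); the call was also lost without WT replicate 1 or 2 or DKO replicate 1, 2 or 3.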

How the results depend on the processing

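Of 2 J segments called by clonotypes, 1 was called with TMM factors and with WT replicates 2 and 5 as 1 sample, and 0 with DESeq2, with clonotypes of at least 2 reads, with nonproductive clonotypes added, with reads drawn to equal depth, in replicates 1 to 3 and in replicates 4 and 5. Leaving out 1 library gave 0 to 2: 0 without WT replicate 5, DKO replicate 1 or DKO replicate 3, and 1 without WT replicate 1, 2 or 3. The count of 2 without DKO replicate 2 was TRAJ43 and TRAJ58, and without DKO replicate 5 TRAJ2 and TRAJ57. V segments by clonotypes, 0 called, gave 1 with D and N copies merged and 0 to 1 leaving out 1 library. V segments by reads, 0 called, gave 1 with TMM factors, 3 with DESeq2 and 0 to 7 leaving out 1 library, the 7 being without DKO replicate 2. J segments by reads gave 0 under every alternative run. The number of Trav and Traj genes called, 16, was 10 without a filter, 20 with DESeq2, 7 with WT replicates 2 and 5 as 1 sample and 6 to 19 leaving out 1 library. The lowest was without WT replicate 5, at 6; 7 were called without WT replicate 2, 3 or 4 or DKO replicate 5, and 9 without WT replicate 1.

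Over clonotypes without a tied V hit, chosen after seeing the data, the DKO minus WT difference was -0.989 in the effective V number by clonotypes (0.757 with all), -0.0319 in the V and J position correlation, -23.3 in the effective V and -12.9 in the effective J number by reads, each with an adjusted exact p of 0.0476. The difference in CDR3 length spread, -0.0180 nucleotides, was 0.242 with clonotypes of at least 2 reads, 0.0395 with CDR3s of at most 75 nucleotides, 0.0280 in replicates 1 to 3 and -0.0937 to 0.0322 leaving out 1 library. The mean J number difference by clonotypes was -0.132 in replicates 1 to 3 (0.120 in all), and by reads -0.372 in replicates 4 and 5 (5.52 in all). The difference in unmatched bases was 0.0112 in replicates 4 and 5 (-0.0874 in all). Leaving out 1 library gave 0.165 to 0.244 nucleotides for CDR3 length by clonotypes, 0.230 to 0.775 by reads, -24.3 to -12.0 for the effective V number by reads and -12.3 to -4.53 for J; the passes were without DKO replicate 1 or 2 for length, DKO replicates 1, 2 or 3 for V and DKO replicate 3 for J. The cause of these changes was not tested, and 3 against 3 or 2 against 2 cannot give an exact p below 0.1 or 0.333.

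With the replicate number as a block, the calls were 0 V and 2 J segments by clonotypes, 0 and 0 by reads and 15 genes, so the replicate block moved no count of calls by more than 1.5 times; a paired exact test of 5 pairs cannot go below 0.0625.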

Other observations

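Between 18.95 and 20.97% of productive WT clonotypes and 19.95 to 24.7% of DKO clonotypes had a CDR3 nucleotide sequence also found in another WT or DKO library. These shared sequences held fewer unmatched junction bases, 1.03 to 1.17 on average in WT and 0.938 to 1.10 in DKO, than sequences found in 1 library, 2.71 to 2.80 and 2.51 to 2.76. No unmatched base was found in 45.6 to 47.5% of shared WT sequences and 48.2 to 52.3% of shared DKO sequences, against 15.2 to 17.3% and 14.7 to 20.5% of the others. The values by library did not overlap between shared and unshared sequences. Sequences shared by WT replicates 2 and 5 are among them.

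The most abundant nonproductive TRA clonotype of each transfer library followed the productive one: TRAV6-5 with TRAJ50 in TX1 replicate 3 and TX2 replicates 5 to 7 (11.7 to 16.8% of TRA reads), and TRAV5-4 with TRAJ24 in TX2 replicates 1 to 4. TX1 replicates 1 and 2 had TRAV21-DV12 with TRAJ49 (9.79%) and TRAV7D-4 with TRAJ13 (24.5%).

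A few clonotypes began with the dominant CDR3 of their library and ran on to a length of 108 to 129 nucleotides, with TRAJ17 or TRAJ23 named as J. They were found in TX2 replicates 1, 4, 5 and 7, with 1 to 9 reads each.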
